A study of Mus musculus with 6 samples.

Results

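The 45 genes described here encode proteins of the cell cycle and of DNA replication. They were chosen by name, as the rows of the expression table whose gene symbol is on a list of proliferation genes, and all 45 were found among the 22513 entries of the table. The list runs from transcription factors and S phase cyclins through origin licensing, the replicative helicase and deoxynucleotide supply to the kinases, kinetochore proteins and motors of mitosis. Foxm1 shares its entry with a neighbouring transcript, 4933413G19Rik, so that its value covers both. Other entries may be wide as well. That of Tk1 ends at chr11:117839908, upstream of its promoter window (117825965-117826264, minus strand). That of Nusap1 starts at chr2:119609531, upstream of its window (119618048-119618347, plus strand). Whether these values cover other transcripts was not examined.

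Cells that enter the cycle switch on replication genes in late G1 and S phase, largely through E2F factors released from the retinoblastoma protein. Genes of mitosis follow in G2, through the MuvB complex with B-Myb and FoxM1, which acts at CHR elements, together with NF-Y at CCAAT boxes. In the thymus, dividing cells include thymocytes, which 2-deoxyguanosine removes from these cultures, and immature epithelial cells, among them the precursors of the Aire-expressing medullary thymic epithelial cells (mTECs) that respond to RANK-ligand (RANKL).

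The RNA came from C57BL/6 fetal thymic lobes cultured with 2-deoxyguanosine (2-DG) for 4 days, a nucleoside that kills haematopoietic cells and spares the stroma. Wild-type (WT) and Jmjd6-/- stroma was either left without RANKL, with 1 library for each genotype, or stimulated with RANKL for 4 days, with 2 libraries for each genotype. All 6 libraries carry the 2-DG treatment, and Jmjd6-/- means loss of the gene in every cell of the embryo, not in epithelium alone. The study's methods call the repeats samples and the series text speaks of technical duplicates, so that p-values here measure the spread between these libraries, which may be technical.

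Expression was deposited as FPKM, the fragments of a gene relative to its transcript length and to the size of the library. From the steps between low values, the depth of the libraries was estimated at 15600000 to 31100000 fragments, and the smallest value among the 45 genes, Ccne2 in unstimulated Jmjd6-/- stroma, stood for about 38 fragments. Jmjd6 was at 25.9 to 32.5 FPKM in the WT and 1.32 to 1.96 in the Jmjd6-/- libraries, and Aire at 0.142 and 0.473 FPKM without and 67.1 to 79.7 with RANKL, so that both labels held. Of 13 thymocyte markers, 8 were below 0.2 FPKM in every library, Rag2 was listed at 0 in all 6, and Cd3e, Cd3d and Dntt were each above 0 in only 1. Of the rest, Cd4 was at 0.332 to 1.45 FPKM and Ptcra at 0.0569 to 0.212, and Ptprc, which all leukocytes express, was at 6.81 and 6.74 FPKM unstimulated and 2.89 to 3.56 with RANKL. The WT repeats with RANKL stood further apart (median absolute log2 difference 0.28) than the Jmjd6-/- repeats (0.08) over 12590 genes averaging 1 FPKM or more. For the 45 genes the first WT repeat lay above the second for 44, the exception being Cenpa, with a median log2 difference of 0.49. Results that rest on these repeats are therefore given with and without each.

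Across the libraries the summed level of the 45 genes was 457 FPKM in WT and 374 in Jmjd6-/- stroma without RANKL, 924 and 666 in WT with RANKL, and 604 and 674 in Jmjd6-/- with RANKL. Both unstimulated libraries were the lowest, unstimulated Jmjd6-/- below unstimulated WT, and the first WT repeat with RANKL was the highest. The same order held within single genes. For 44 of the 45 the highest of the 6 values was in the first WT repeat with RANKL, and for 42 the lowest was in unstimulated Jmjd6-/- stroma. The other RANKL libraries changed places from gene to gene. Below the first WT repeat came the second WT repeat and then the second and first Jmjd6-/- repeats in 15 genes. In 12 genes the second WT repeat lay between the Jmjd6-/- repeats, the second of which was higher, and in another 12 it lay below both in this order.

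**Figure D1:**
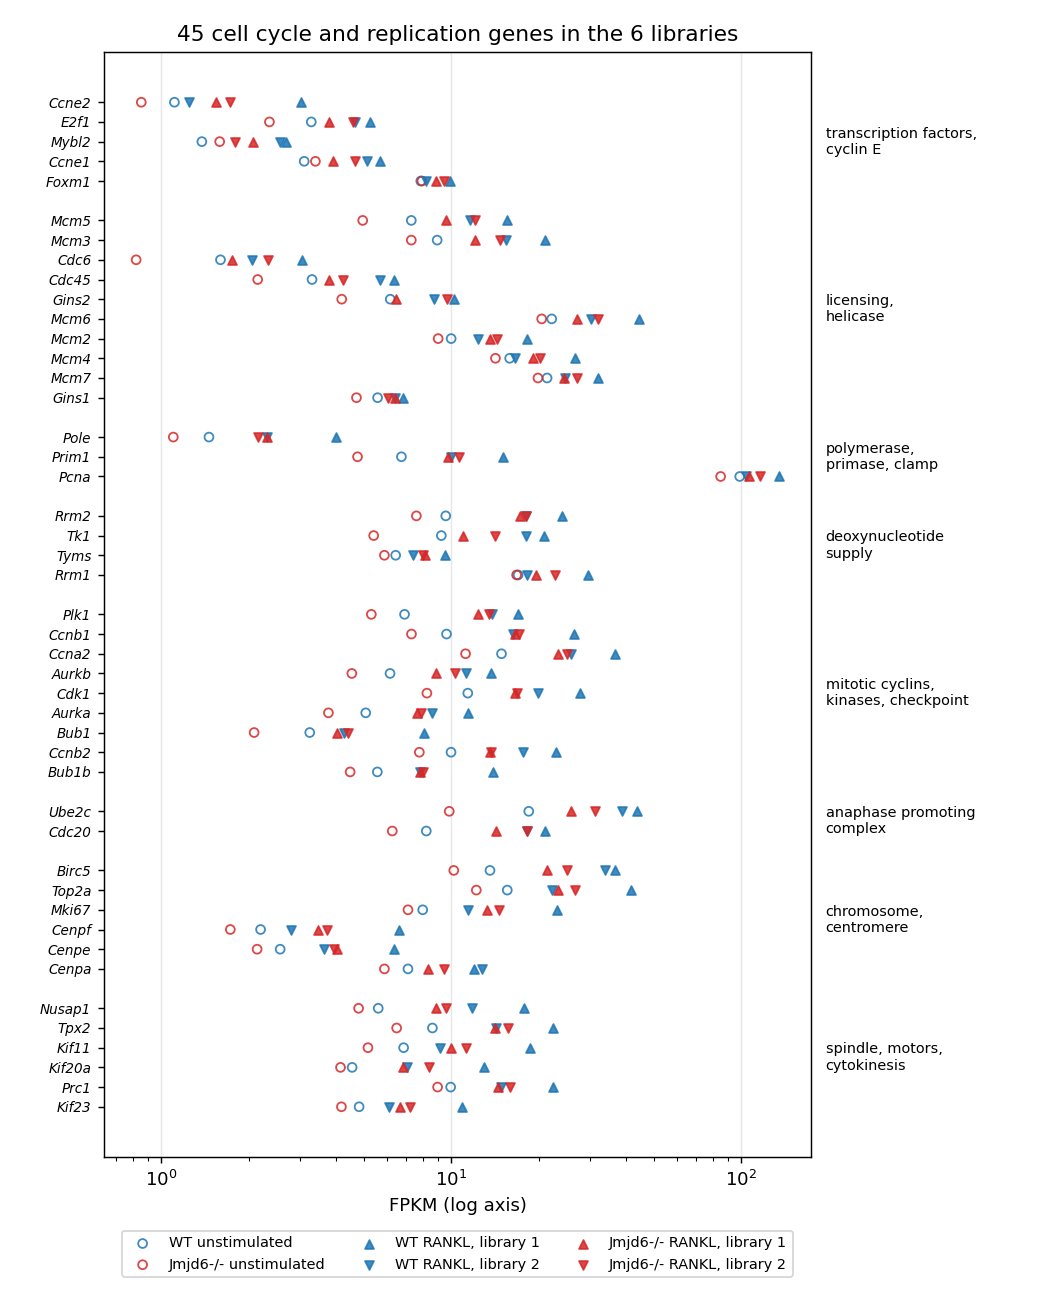
FPKM of the 45 genes in the 6 libraries on a log axis, with genes in rows grouped by role, blue for WT, red for Jmjd6-/-, open circles for unstimulated and filled triangles for RANKL-stimulated libraries. In every row the 4 filled symbols lie to the right of both open circles, and the first WT repeat with RANKL (upward blue triangle) is the highest value for 44 of 45 genes.

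To see what happened to these genes when the stroma was stimulated, the RANKL libraries were compared with the unstimulated ones over both genotypes. All 45 genes were higher in each of the 4 RANKL libraries than in either unstimulated library, a separation that 18.9% of the 15894 genes tested showed. By limma with Benjamini-Hochberg adjustment over all genes tested, 30 of the 45 rose at an adjusted p under 0.05, against 10.5% of all genes, and 0 of the 45 fell, against 4.11% of all genes. The log2 change had a median of 0.91, or 1.88-fold, while the median over all genes tested was -0.02. It was above 0 for all 45 and ran from 0.20 for Foxm1 to 1.34 for Ube2c. At an unadjusted p under 0.05, 43 of the 45 were higher and 0 lower, against 29.7% of all genes in either direction. In bulk stroma, more dividing cells and more RNA per cell cannot be told apart.

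The calls depended on the libraries and on the scaling, but not their direction. All 45 log2 changes stayed above 0 in each of the 14 alternative fits. Without the first or second Jmjd6-/- repeat, 19 and 17 genes passed, and without the first or second WT repeat, 33 and 42. The count was 19 after scaling the libraries to equal totals and 9 without the filter on low values. Of the 30 genes called, 8 passed in all 14 alternatives, namely Aurkb, Birc5, Cdc20, Cdc45, Plk1, Rrm2, Tk1 and Ube2c.

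**Figure D2:**
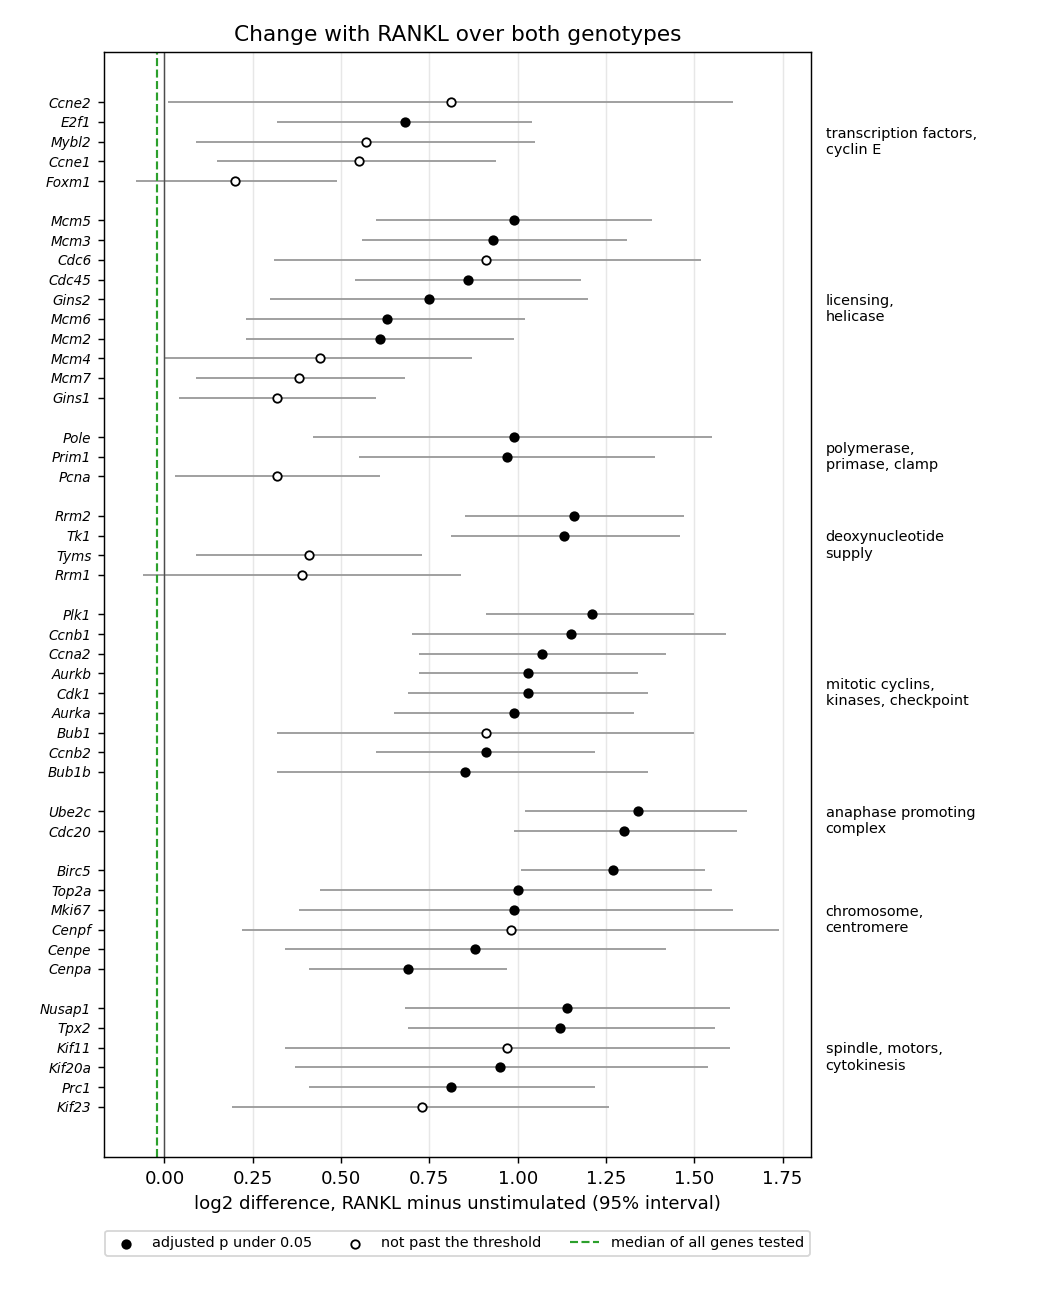
Log2 difference between RANKL-stimulated and unstimulated libraries over both genotypes for the 45 genes, with 95% intervals from limma and filled points for an adjusted p under 0.05. The points lie between 0.20 and 1.34, to the right of the median of all genes tested at -0.02. The 2 genes that work with the anaphase promoting complex, Ube2c and Cdc20, sit furthest to the right.

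By role, the largest median change was that of 2 genes that work with the anaphase promoting complex, the ubiquitin ligase that starts anaphase and ends mitosis. Both rose, with log2 changes of 1.34 for Ube2c and 1.30 for Cdc20. The list holds no core subunit of the complex, so the complex itself was not examined. Ube2c FPKM was 18.5 in WT and 9.84 in Jmjd6-/- stroma without RANKL, 43.8 and 38.7 in WT with RANKL, and 25.8 and 31.4 in Jmjd6-/- with RANKL. Ube2c, the E2 enzyme of the complex and the gene with the largest change of the 45, thus had 4 RANKL values above both unstimulated ones, with the Jmjd6-/- values below the WT values in each condition. Its log2 change was 1.34 ± 0.13 (SE, adjusted p = 0.00128). Cdc20 FPKM was 8.2 in WT and 6.26 in Jmjd6-/- stroma without RANKL, 21.1 and 18.3 in WT with RANKL, and 14.3 and 18.3 in Jmjd6-/- with RANKL. Cdc20, the activator that the spindle checkpoint restrains, had equal values at this rounding in the second WT and second Jmjd6-/- repeats, and its log2 change was 1.30 ± 0.13 (SE, adjusted p = 0.00143).

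Promoter sequences of 35 of the 45 genes were available in RefSeq (GRCm38.p6, the build to which the authors mapped), as windows of 300 bases that begin 250 bases before the gene start. Shown are the windows of Ube2c and Cdc20, the genes with the largest rises, of Cdk1, which holds all 3 motifs searched, and of Mcm5, the licensing gene with the largest rise. Capitals mark matches on either strand to CCAAT (the box named after it), to TTTGAA or TTCGAA (CHR element) and to TTTCCCGC, TTTCGCGC, TTTGCCGC or TTTGGCGC (E2F element). The windows lie at chr2:164769679-164769978 on the plus strand (Ube2c), chr4:118437294-118437593 on the minus strand (Cdc20), chr10:69352863-69353162 on the minus strand (Cdk1) and chr8:75109259-75109558 on the plus strand (Mcm5), and each holds the end of the upstream region and the first bases of the transcript.
Ube2c: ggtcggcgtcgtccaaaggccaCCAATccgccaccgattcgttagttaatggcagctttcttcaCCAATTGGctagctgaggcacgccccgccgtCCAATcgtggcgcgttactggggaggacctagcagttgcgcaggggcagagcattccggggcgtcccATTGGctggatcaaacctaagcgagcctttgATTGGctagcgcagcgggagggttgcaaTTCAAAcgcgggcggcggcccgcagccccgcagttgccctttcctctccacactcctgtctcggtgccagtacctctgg
Cdc20: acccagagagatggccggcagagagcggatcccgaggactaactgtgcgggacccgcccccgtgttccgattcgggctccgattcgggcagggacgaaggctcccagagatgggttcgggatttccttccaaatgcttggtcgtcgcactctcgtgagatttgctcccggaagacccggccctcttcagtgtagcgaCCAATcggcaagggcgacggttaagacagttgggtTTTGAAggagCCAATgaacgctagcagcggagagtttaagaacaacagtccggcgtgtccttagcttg
Cdk1: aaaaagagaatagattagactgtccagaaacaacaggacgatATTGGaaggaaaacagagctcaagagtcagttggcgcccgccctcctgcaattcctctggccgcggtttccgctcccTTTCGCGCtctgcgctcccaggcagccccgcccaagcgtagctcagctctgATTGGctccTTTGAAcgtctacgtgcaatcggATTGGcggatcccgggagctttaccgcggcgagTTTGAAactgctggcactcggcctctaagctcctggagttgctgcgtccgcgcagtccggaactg
Mcm5: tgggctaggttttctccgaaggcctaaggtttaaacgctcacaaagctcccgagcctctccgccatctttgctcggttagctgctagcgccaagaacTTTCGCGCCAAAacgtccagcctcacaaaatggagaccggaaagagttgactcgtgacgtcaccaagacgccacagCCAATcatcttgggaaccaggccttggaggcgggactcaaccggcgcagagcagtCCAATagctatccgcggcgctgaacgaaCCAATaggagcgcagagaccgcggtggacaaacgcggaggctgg

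Counted on both strands, the window of Ube2c held 6 CCAAT matches, a pair of them overlapping in 1 palindrome, and 1 CHR match that starts at -29 from the gene start. Cdc20 held 2 CCAAT matches and 1 CHR match at -18, Cdk1 held 3 CCAAT, 2 CHR and 1 E2F match, and Mcm5 held 3 CCAAT matches and an overlapping pair of E2F matches at -153 and -149. Over the 37 windows of the 35 genes, 78.4% held a CCAAT match, 51.4% a CHR match and 16.2% an E2F match, against 37.4%, 19.2% and 2.3% of all 32851 promoter windows of the same length. Of 19 mitotic genes with a window, 17 held a CCAAT match, 15 a CHR match and 1 an E2F match, while of 16 genes of S phase and replication 10 held a CCAAT match, 3 a CHR match and 5 an E2F match (Cdc6, Mcm3, Mcm5, Mcm6 and Mcm7). Birc5, Ccne1, E2f1, Mybl2, Nusap1, Tk1 and Tyms held none of these letters in the window. A match is a description of the sequence, and binding was not measured.

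Among the cyclins, kinases and checkpoint genes of mitosis, 8 of 9 rose, with a median log2 change of 1.03, and Bub1, a spindle checkpoint kinase, did not pass (0.91; adjusted p = 0.0567). Plk1 FPKM was 6.9 in WT and 5.3 in Jmjd6-/- stroma without RANKL, 17 and 13.8 in WT with RANKL, and 12.4 and 13.5 in Jmjd6-/- with RANKL. Plk1, the Polo-like kinase of mitotic entry and spindle assembly, was higher in all 4 RANKL libraries, by 1.21 ± 0.12 log2 units (SE, adjusted p = 0.00143). Cdk1 FPKM was 11.4 in WT and 8.24 in Jmjd6-/- stroma without RANKL, 27.9 and 19.9 in WT with RANKL, and 16.6 and 16.9 in Jmjd6-/- with RANKL. Cdk1, the kinase that drives entry into mitosis, rose by 1.03 ± 0.14 log2 units (SE, adjusted p = 0.00506 by limma). With RANKL both Jmjd6-/- values lay below both WT values, and without it the single Jmjd6-/- value lay below the single WT value.

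The cyclin partners of Cdk1 were also highest in the first WT repeat with RANKL and lowest in unstimulated Jmjd6-/- stroma. Ccna2 FPKM was 14.9 in WT and 11.2 in Jmjd6-/- stroma without RANKL, 36.6 and 25.8 in WT with RANKL, and 23.4 and 25.1 in Jmjd6-/- with RANKL. Ccna2, the A-type cyclin of S phase and G2 and the most abundant gene of the group, rose by 1.07 ± 0.15 log2 units (SE, adjusted p = 0.00467). Ccnb1 FPKM was 9.63 in WT and 7.29 in Jmjd6-/- stroma without RANKL, 26.5 and 16.3 in WT with RANKL, and 16.6 and 17.1 in Jmjd6-/- with RANKL. For Ccnb1, the B-type cyclin that activates Cdk1 in mitosis, the first WT repeat stood well above the other 3 RANKL values, which lay within 1 FPKM of each other, and the change was 1.15 ± 0.19 log2 units (SE, adjusted p = 0.00915). Ccnb2 FPKM was 9.98 in WT and 7.76 in Jmjd6-/- stroma without RANKL, 23 and 17.7 in WT with RANKL, and 13.6 and 13.7 in Jmjd6-/- with RANKL. In Ccnb2, the other B-type cyclin, the WT values lay above the Jmjd6-/- values in both conditions, and the rise was 0.91 ± 0.13 log2 units (SE, adjusted p = 0.00576). The Aurora kinases Aurka and Aurkb, which act at spindle poles and centromeres, rose by 0.99 and 1.03 on the log2 scale, and the checkpoint kinase Bub1b by 0.85.

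Of the 6 genes of chromosomes, centromeres and kinetochores, 5 rose, with a median log2 change of 0.98. Birc5 FPKM was 13.6 in WT and 10.2 in Jmjd6-/- stroma without RANKL, 36.8 and 33.8 in WT with RANKL, and 21.3 and 25 in Jmjd6-/- with RANKL. Birc5, or survivin, the subunit that brings Aurora B to the centromere, had WT values above the Jmjd6-/- values in each condition, and rose by 1.27 ± 0.11 log2 units (SE, adjusted p = 0.000714). Top2a FPKM was 15.6 in WT and 12.2 in Jmjd6-/- stroma without RANKL, 41.8 and 22.3 in WT with RANKL, and 23.4 and 26.7 in Jmjd6-/- with RANKL. Top2a, the topoisomerase that untangles sister chromatids, rose by 1.00 ± 0.23 log2 units (SE, adjusted p = 0.0339), with the second WT repeat below both Jmjd6-/- repeats. Mki67 FPKM was 7.97 in WT and 7.09 in Jmjd6-/- stroma without RANKL, 23.2 and 11.4 in WT with RANKL, and 13.3 and 14.6 in Jmjd6-/- with RANKL. Mki67, which coats mitotic chromosomes and is the common marker of cycling cells, had its first WT repeat at 23.2 FPKM against 11.4 in the second and passed narrowly, with a log2 change of 0.99 ± 0.26 (SE, adjusted p = 0.0483). It passed in 6 of the 14 alternative fits. Cenpf, a large kinetochore protein, had a change of similar size (0.98) but a wider error and did not pass (adjusted p = 0.0927). Cenpa FPKM was 7.09 in WT and 5.88 in Jmjd6-/- stroma without RANKL, 12 and 12.8 in WT with RANKL, and 8.31 and 9.45 in Jmjd6-/- with RANKL. Cenpa, the histone variant of centromeres, was the gene for which the second WT repeat was the highest of the 6 values, and it rose by 0.69 ± 0.12 log2 units (SE, adjusted p = 0.0106). The kinetochore motor Cenpe rose by 0.88 on the log2 scale.

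Among the 6 genes of the spindle, its motors and cytokinesis, 4 rose and the median log2 change was 0.96. Prc1 FPKM was 9.95 in WT and 8.97 in Jmjd6-/- stroma without RANKL, 22.4 and 14.8 in WT with RANKL, and 14.5 and 16 in Jmjd6-/- with RANKL. Prc1, which bundles the microtubules of the central spindle and was the most abundant gene of the group, rose by 0.81 ± 0.17 log2 units (SE, adjusted p = 0.0237). Nusap1 FPKM was 5.6 in WT and 4.79 in Jmjd6-/- stroma without RANKL, 17.8 and 11.8 in WT with RANKL, and 8.85 and 9.58 in Jmjd6-/- with RANKL. Nusap1, a microtubule-bundling protein of the spindle, rose by 1.14 ± 0.19 log2 units (SE, adjusted p = 0.0103), with no overlap between the genotypes under RANKL. Tpx2, which builds spindle microtubules, and the cytokinesis motor Kif20a rose by 1.12 and 0.95 on the log2 scale. The kinesins Kif11 and Kif23 had log2 changes of 0.97 and 0.73 and did not pass (adjusted p = 0.0551 and 0.0795).

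Next came the genes of S phase. Of the 10 genes of origin licensing and the replicative helicase 6 rose, with a median log2 change of 0.69. Mcm6 FPKM was 22.2 in WT and 20.5 in Jmjd6-/- stroma without RANKL, 44.3 and 30.4 in WT with RANKL, and 27.2 and 32.1 in Jmjd6-/- with RANKL. Mcm6, a subunit of the MCM helicase ring and the most abundant gene of the group, passed narrowly with 0.63 ± 0.16 log2 units (SE, adjusted p = 0.0496). Mcm2 FPKM was 9.99 in WT and 9.01 in Jmjd6-/- stroma without RANKL, 18.2 and 12.4 in WT with RANKL, and 13.6 and 14.4 in Jmjd6-/- with RANKL. Mcm2, another subunit of the ring, passed likewise with 0.61 ± 0.16 log2 units (SE, adjusted p = 0.0485), and its second WT repeat lay below both Jmjd6-/- repeats.

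The subunits of the ring differed in the size of their change although they act as 1 complex, with log2 changes of 0.99 for Mcm5, 0.93 for Mcm3, 0.63 for Mcm6, 0.61 for Mcm2, 0.44 for Mcm4 and 0.38 for Mcm7. Mcm4 and Mcm7 did not pass (adjusted p = 0.166 and 0.0883). The differences between subunits were not tested. Of the partners that make the ring an active helicase, Cdc45 was at 3.31 and 2.15 FPKM unstimulated, 6.37 and 5.7 in WT with RANKL, and 3.8 and 4.22 in Jmjd6-/- with RANKL. Cdc45 rose by 0.86 ± 0.13 log2 units (SE, adjusted p = 0.00809 by limma). Both of its Jmjd6-/- values lay below both WT values with RANKL, as did the single Jmjd6-/- value below the single WT value without it. The GINS subunit Gins2 rose by 0.75 on the log2 scale (adjusted p = 0.0431 by limma). Cdc6, which loads the ring onto origins, was at 1.6 and 0.819 FPKM unstimulated, 3.06 and 2.05 in WT with RANKL, and 1.75 and 2.34 in Jmjd6-/- with RANKL. Its values with RANKL lay above both unstimulated ones, but the change of 0.91 ± 0.25 log2 units (SE, adjusted p = 0.0599) did not pass. Gins1 FPKM was 5.57 in WT and 4.71 in Jmjd6-/- stroma without RANKL, 6.81 and 6.41 in WT with RANKL, and 6.41 and 6.03 in Jmjd6-/- with RANKL. Gins1, a subunit of the GINS complex of the active helicase, had RANKL values between 6.03 and 6.81 FPKM and did not pass, with 0.32 ± 0.12 log2 units (SE, adjusted p = 0.126).

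In the group of polymerase, primase and clamp, Pole and Prim1, a catalytic subunit of the leading-strand polymerase and of primase, rose by 0.99 and 0.97 on the log2 scale. Pcna FPKM was 98.8 in WT and 84.9 in Jmjd6-/- stroma without RANKL, 135 and 104 in WT with RANKL, and 106 and 116 in Jmjd6-/- with RANKL. Pcna, the sliding clamp, was the most abundant of the 45 genes in every library. Its RANKL values were above both unstimulated values, by a log2 change of 0.32 ± 0.12 (SE, adjusted p = 0.134), which did not pass.

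Enzymes of deoxynucleotide supply split in the same way, with 2 of 4 genes called. Rrm2 FPKM was 9.57 in WT and 7.58 in Jmjd6-/- stroma without RANKL, 24 and 18.1 in WT with RANKL, and 17.2 and 18.1 in Jmjd6-/- with RANKL. Rrm2, the cycle-regulated subunit of ribonucleotide reductase, rose by 1.16 ± 0.13 log2 units (SE, adjusted p = 0.00211), whereas Rrm1, its large and more stable subunit, was at 17 and 16.8 FPKM unstimulated, 29.6 and 18.3 in WT with RANKL, and 19.6 and 22.7 in Jmjd6-/- with RANKL. Its change was 0.39 ± 0.19 log2 units (SE, adjusted p = 0.223) and did not pass. Tk1 FPKM was 9.24 in WT and 5.4 in Jmjd6-/- stroma without RANKL, 20.9 and 18.1 in WT with RANKL, and 11 and 14.2 in Jmjd6-/- with RANKL. Tk1, the S phase thymidine kinase of the salvage pathway, rose by 1.13 ± 0.14 log2 units (SE, adjusted p = 0.00283), with the Jmjd6-/- values below the WT values in each condition. Tyms, thymidylate synthase of the synthetic pathway, was at 6.43 and 5.88 FPKM unstimulated, 9.5 and 7.36 in WT with RANKL, and 8.09 and 7.97 in Jmjd6-/- with RANKL. Its change of 0.41 ± 0.13 log2 units (SE, adjusted p = 0.094) did not pass.

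Of the 5 transcription factors and E-type cyclins only E2f1 was called. E2f1 FPKM was 3.29 in WT and 2.36 in Jmjd6-/- stroma without RANKL, 5.23 and 4.64 in WT with RANKL, and 3.8 and 4.57 in Jmjd6-/- with RANKL. E2f1, the activator of S phase genes, rose by 0.68 ± 0.15 log2 units (SE, adjusted p = 0.0293). Foxm1 FPKM was 7.85 in WT and 7.92 in Jmjd6-/- stroma without RANKL, 9.88 and 8.16 in WT with RANKL, and 8.89 and 9.47 in Jmjd6-/- with RANKL. Foxm1, an activator of mitotic genes, had its lowest RANKL value at 8.16 FPKM, next to the unstimulated 7.92, and the smallest change of the 45, 0.20 ± 0.12 log2 units (SE, adjusted p = 0.308). Mybl2 FPKM was 1.38 in WT and 1.59 in Jmjd6-/- stroma without RANKL, 2.69 and 2.56 in WT with RANKL, and 2.07 and 1.8 in Jmjd6-/- with RANKL. In Mybl2, which encodes B-Myb, the unstimulated Jmjd6-/- value lay above the WT value, and the Jmjd6-/- values with RANKL below the WT values. Mybl2, Ccne1 and Ccne2 (cyclins E1 and E2) had log2 changes of 0.57, 0.55 and 0.81 and did not pass (adjusted p = 0.112, 0.0743 and 0.164).

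Grouped by phase, 19 of the 23 mitotic genes rose, with a median log2 change of 0.99, and 11 of the 22 genes of S phase and replication, with a median of 0.65. Genes of the same pathways outside the list were counted in the same way. Of 36 other mitotic genes 24 rose, with a median log2 change of 0.99, among them the kinase Melk (1.39 ± 0.19, SE) and the spindle protein Dlgap5, at 2.81 and 1.78 FPKM unstimulated and 5.20 to 7.8 with RANKL. Of 31 other replication genes 10 rose, with a median of 0.29, led by the chromatin assembly subunit Chaf1b (1.16 ± 0.15, SE) and the origin-firing factor Mcm10 (1.11 ± 0.19, SE).

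Regulators of the G1 to S step had smaller median changes. Of 20 G1 cyclins and kinases, pocket proteins and other E2F genes 4 rose, with a median of 0.18. E2f2, an activator E2F, was at 0.551 and 0.365 FPKM unstimulated and 2.14 to 2.50 with RANKL (log2 change 2.13 ± 0.18, SE), and Ccnd2, a D-type cyclin, rose by 0.76 ± 0.16 (SE). Of 18 cell cycle inhibitors and p53 targets 4 rose, with a median of 0.08. Cdkn2a, which encodes p16Ink4a and p19Arf, was at 0.356 and 0.463 FPKM unstimulated and 3.13 to 4.88 with RANKL (3.09 ± 0.21, SE), and its neighbour Cdkn2b rose by 1.16 ± 0.19 (SE). In these 4 lists 0 genes fell at an adjusted p under 0.05 by limma.

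Cell type markers moved with RANKL as well. Over all genes tested, 18.9% were higher in all 4 RANKL libraries than in both unstimulated ones, and 18.5% were lower. Of 9 mTEC markers 8 were higher in this way. Their summed level did not rise alike, at 1580 and 2020 FPKM unstimulated and 1210 to 2130 with RANKL. Krt5, the largest part of it, was at 1550 and 1980 FPKM unstimulated and 1010 to 1890 with RANKL. Of 7 markers of cortical epithelium 4 were lower, with a summed level of 12900 and 13600 FPKM unstimulated and 8350 to 10300 with RANKL. The summed level of 8 macrophage markers, cells that 2-DG had not removed, was 409 and 429 FPKM unstimulated and 312 to 500 with RANKL, with 3 markers higher and 2 lower in all 4 RANKL libraries. Of the 13 thymocyte markers 3 (Thy1, Lck and Cd8a) were higher in all 4 RANKL libraries and 1, Ptprc, was lower, shares near those of all genes. Cd8a was at most 0.0198 FPKM in any library. The summed level of the 13 was 12.6 FPKM in WT and 11.7 in Jmjd6-/- stroma without RANKL, and 14.1 and 17.8 against 10.4 and 10.6 with it. Thy1, which mesenchyme can express as well, was at 4.71 and 3.19 FPKM unstimulated, 8.06 and 10.5 in WT with RANKL and 5.77 and 5.37 in Jmjd6-/- with RANKL, and Lck, a T cell kinase, at 0.61 and 0.39, 1.91 and 1.71, and 0.728 and 0.797. By limma both rose with RANKL (log2 change 0.86, adjusted p = 0.0106, and 1.12, adjusted p = 0.0226), and their genotype differences under RANKL, -0.71 and -1.15, did not pass (adjusted p = 0.122 and 0.0765). The part of these changes in the levels of the 45 genes was not tested.

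The next question was whether the response to RANKL depended on Jmjd6. Both RANKL libraries lay above the unstimulated one for all 45 genes in WT, against 34.6% of all genes tested, and for all 45 in Jmjd6-/- stroma, against 40.8% of all genes. The median log2 change was 0.88 in WT and 0.90 in Jmjd6-/- stroma. In a test of the difference between these changes, limma called 0 of the 45 genes, against 0.0% of all 15894 genes, and at an unadjusted p under 0.05 it gave 0 of the 45 and, over all genes, 118 higher and 546 lower. The difference, Jmjd6-/- minus WT, was above 0 for 27 genes and below 0 for 18, with a median of 0.06.

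With 1 unstimulated library for each genotype the intervals were wide. The 95% interval of the difference lay within 1 log2 unit on either side of 0 for 18 of the 45 genes, so that for the remaining 27 a difference of that size was not resolved. Cdc6 had the highest difference, 0.59 (95% interval -0.65 to 1.84), and for Ube2c it was 0.37 (-0.27 to 1.01). Mybl2 had the lowest, -0.61 (-1.50 to 0.27), and was among the 3 genes, with Ccne1 and Foxm1, for which unstimulated Jmjd6-/- stroma did not lie below WT. The median turned on the WT repeats. It was 0.29 without the first and -0.25 without the second.

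**Figure D3:**
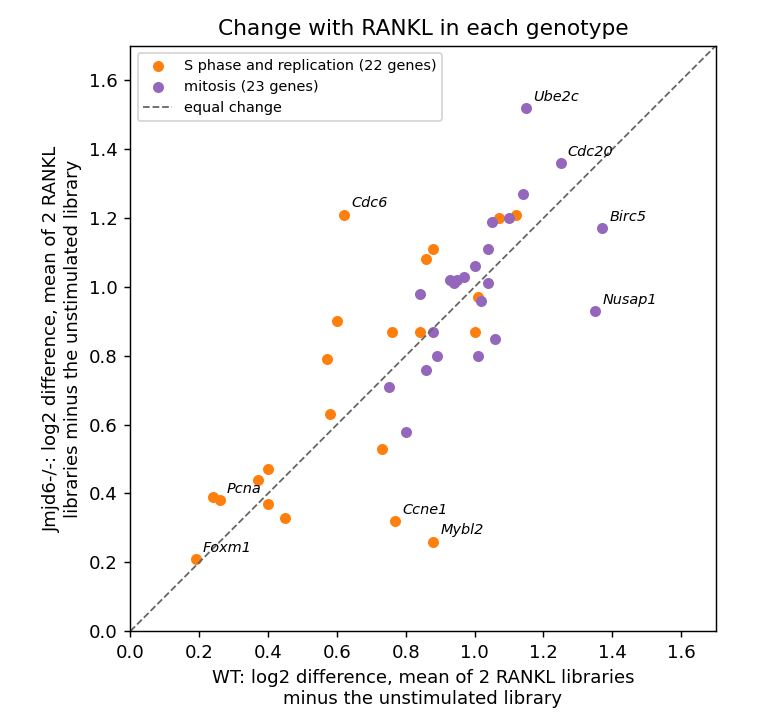
Log2 difference between the mean of the RANKL libraries and the unstimulated library for each of the 45 genes, in WT (horizontal) against Jmjd6-/- stroma (vertical), with genes of S phase and replication in orange, mitotic genes in purple and equal change as a dashed line. Points lie on both sides of the line, Cdc6 farthest above it (difference 0.59) and Mybl2 farthest below (-0.61).

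The genotypes were then compared directly under RANKL. By limma 0 of the 45 genes were lower in Jmjd6-/- stroma at an adjusted p under 0.05, against 1.82% of all genes, and 0 were higher, against 0.516%. At an unadjusted p under 0.05 it was 8 of the 45, against 18.8% of all genes. The log2 difference, Jmjd6-/- minus WT, was below 0 for 44 of the 45 genes and above 0 for Foxm1 (0.03), with a median of -0.29, or 0.816-fold, against 0.01 for all genes tested. In 18 of the 45 genes both Jmjd6-/- repeats lay below both WT repeats, as in 26.2% of all genes tested, and they included 6 of the 9 mitotic cyclins and kinases (Aurka, Aurkb, Ccna2, Ccnb2, Cdk1 and Plk1) and 3 of the 5 transcription factors and E-type cyclins (Ccne1, E2f1 and Mybl2).

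How far the median lay below 0 with RANKL depended on the WT repeat used. All 45 genes were lower in both Jmjd6-/- repeats than in the first WT repeat, against 46.0% of all genes tested. Only 18 of the 45 were lower in both than in the second WT repeat, against 43.0% of all genes. With the first WT repeat left out, the median difference was -0.04 and 20 genes were above 0. With the second left out, the median was -0.58 and all 45 were below 0. Each of these fits assumes that the single WT library left varies like the other group, so counts of called genes are left out here. Mki67 turned with this choice, from a log2 difference of -0.73 against the first WT repeat to 0.28 against the second.

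**Figure D4:**
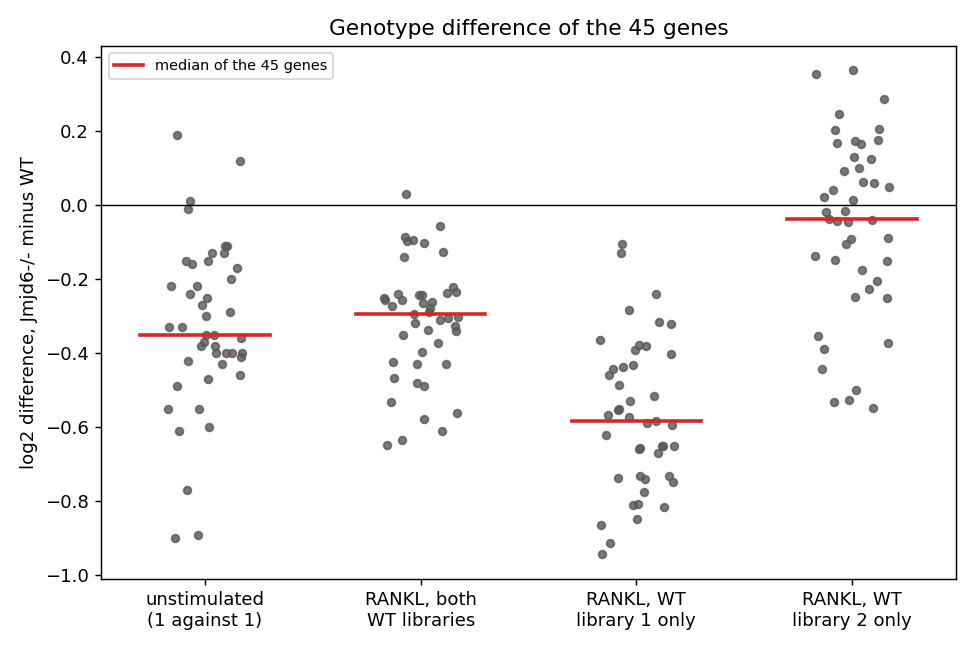
Log2 difference, Jmjd6-/- minus WT, of the 45 genes in 4 columns: the unstimulated libraries, the RANKL libraries with both WT repeats, and the mean of the Jmjd6-/- RANKL repeats against each WT repeat alone, with the median as a red bar. The medians are -0.35, -0.29, -0.58 and -0.04, and against the second WT repeat the points spread on both sides of 0.

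The following 3 genes had the lowest differences under RANKL. For Nusap1 the log2 difference was -0.65 ± 0.22 log2 units (SE, adjusted p = 0.211), for Tk1 -0.63 ± 0.18 log2 units (SE, adjusted p = 0.137) and for Birc5 -0.61 ± 0.13 log2 units (SE, adjusted p = 0.0841). All of them had Jmjd6-/- values below both WT values, as listed above, and for Birc5 the Jmjd6-/- repeats were at 21.3 and 25.0 FPKM against 36.8 and 33.8 in WT. Of the fits that kept all 4 RANKL libraries, 3 called Birc5 lower by limma. These had the replicate number as a block (adjusted p = 0.0282), genotype over all 6 libraries (0.0333), or trends in GC content and length removed (0.0423). Its difference stayed between -0.72 and -0.50 over 15 alternative fits. At the other end were Foxm1, Tyms (-0.06) and Gins1 (-0.09), for which the repeats of the genotypes overlapped in Foxm1 and Tyms and met at 6.41 FPKM, to this rounding, in Gins1. The 95% intervals reached from -0.36 to 0.42 for Foxm1, from -0.50 to 0.38 for Tyms and from -0.46 to 0.29 for Gins1.

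The distance between the WT repeats was not the same for all 45 genes. It was largest for Cenpf and Ccne2 (log2 1.22 each), Kif11 (1.02) and Mki67 (1.01), and small for Cenpa (-0.10), Mybl2 (0.07), Gins1 (0.09) and Birc5 (0.12). Across the 45 genes it fell with the GC content of the transcript (r = -0.68) and increased with the log2 of its length (r = 0.60), and across 11850 genes averaging 1 FPKM or more the values were -0.46 and 0.50. In the 15 genes with the lowest GC content, 36.3 to 46.1%, the median distance was 0.69, and in the 15 with the highest, 51.4 to 58.3%, it was 0.27. Between the Jmjd6-/- repeats the coefficients over the 45 genes were -0.23 and 0.04. All points of such a correlation share the same pair of libraries, and genes are not independent replicates. The trends in GC content and length were then taken out of each library, a step added after these values were seen. The median genotype difference under RANKL was then -0.31, Birc5 was called lower (-0.62, adjusted p = 0.0423 by limma), and 35 of the 45 genes rose with RANKL. Over all 15894 genes the same fits called 583 lower in Jmjd6-/- stroma under RANKL and 1826 higher with RANKL.

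**Figure D5:**
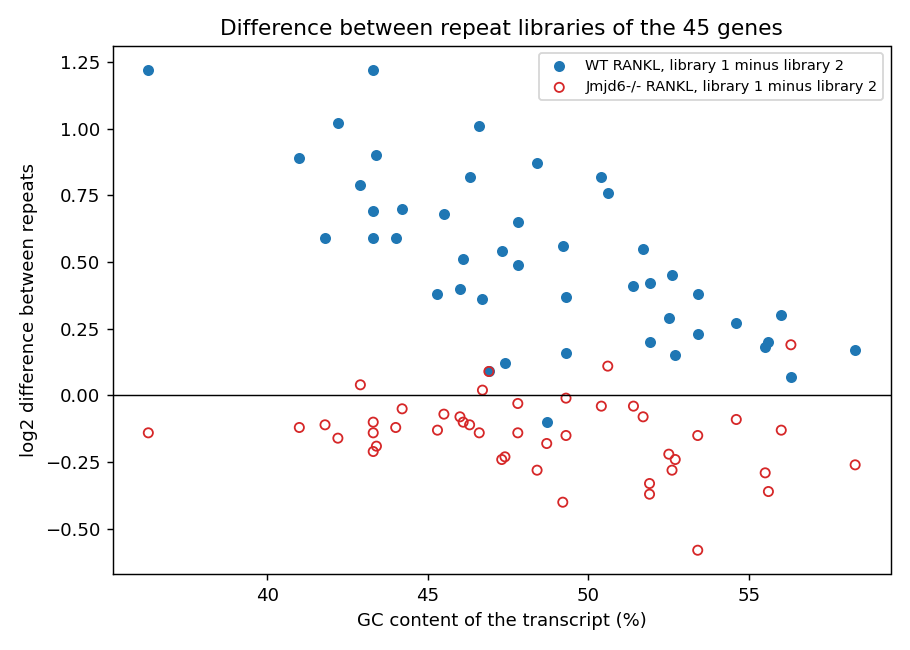
Log2 difference between repeat libraries with RANKL against the GC content of the transcript for the 45 genes, with filled blue points for WT and open red points for Jmjd6-/- stroma. The WT points fall from a median of 0.69 in the 15 genes of lowest GC content to 0.27 in the 15 of highest, and the Jmjd6-/- points lie between -0.58 and 0.19.

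Without RANKL there was 1 library for each genotype and hence no test. Of the 45 genes 42 were lower in Jmjd6-/- than in WT stroma, against 49.1% of all genes tested, with a median log2 difference of -0.35, or 0.786-fold, and 0.00 over all genes. The largest differences were those of Ube2c (18.5 against 9.84 FPKM, log2 -0.90), Cdc6 (1.60 against 0.819, log2 -0.89) and Tk1 (9.24 against 5.40, log2 -0.77). For Cdc6 the values stood for about 231 and 59 fragments. The exceptions were Foxm1 (7.85 against 7.92), Mybl2 (1.38 against 1.59) and Ccne1 (3.11 against 3.40). The WT library was estimated at 31100000 fragments and the Jmjd6-/- library at 15600000, and the spread between repeats is not known in this condition. Between the repeats with RANKL the 45 genes had a median log2 difference of 0.49 in WT, which is further from 0 than the difference between these 2 unstimulated libraries, and of -0.14 in Jmjd6-/- stroma, which is nearer to 0.

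In the other lists of the pathway, 2 genes were called between the genotypes under RANKL, and both were lower in Jmjd6-/- stroma. They were 1 of the 20 G1 cyclins and kinases, pocket proteins and other E2F genes and 1 of the 18 inhibitors and p53 targets. Of the 31 other replication and 36 other mitotic genes 0 were called. Over all genes tested 1.82% were called lower and 0.516% higher. Ccnd1, a D-type cyclin of G1, was at 7.85 and 6.43 FPKM in WT and 2.66 and 2.53 in Jmjd6-/- stroma (log2 difference -1.42, adjusted p = 0.0335 by limma), and unstimulated at 5.40 and 2.59. Cdkn1c, which encodes the inhibitor p57, was at a mean of 15.0 ± 0.756 FPKM (SD, n = 2) in WT and 5.40 ± 0.235 (SD, n = 2) in Jmjd6-/- stroma (-1.46, adjusted p = 0.0279 in the limma fit), and unstimulated at 8.29 and 5.09. Both were called in 12 of 15 alternative fits. Most inhibitors and p53 targets had differences on the other side of 0 from Cdkn1c, but 0 were called higher. Their log2 difference was below 0 for 4 of 18, against 48.2% of all genes tested, with a median of 0.16. Cdkn1a, which had the highest difference of the 18, was at 69.9 and 77.1 FPKM in Jmjd6-/- and 33.5 and 50.4 in WT stroma with RANKL. Its difference of 0.84 did not pass (adjusted p = 0.11 by limma).

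Markers of other stromal cells differed between the genotypes in the same libraries. The summed level of 7 mesenchyme markers was 654 FPKM in WT and 304 in Jmjd6-/- stroma without RANKL, and 635 and 697 against 393 and 407 with RANKL, with Jmjd6-/- below WT for 6 of 7 under RANKL and 7 of 7 without. For 6 endothelial markers the sums were 23.4 and 8.50 FPKM without RANKL, and 13.4 and 13.6 against 4.47 and 5.08 with it, with Jmjd6-/- below WT for all 6 in both conditions. Of all genes tested, 26.2% had both Jmjd6-/- repeats below both WT repeats with RANKL, and 49.1% were lower without it. Epithelial markers were mixed. With RANKL, both Jmjd6-/- repeats lay below both WT repeats for 3 of 9 mTEC and 0 of 7 cortical markers. They lay above for 4 of 9 and 3 of 7, against 24.5% of all genes. The part of all these markers in the levels of the 45 genes, of Ccnd1 and of Cdkn1c was not tested.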

How the data were processed

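Poly-A RNA of 6 libraries (embryonic day 15.5 lobes, 1.35 mM 2-DG, RANKL at 1 μg ml-1) had been sequenced in 101-bp paired-end mode. The authors mapped filtered reads to mm10 with TopHat2 2.0.10 and computed the deposited FPKM values per gene with Cufflinks 2.1.1, correcting for multiply mapped reads and with a stranded library setting, although the kit named keeps no strand. Genes that overlap on opposite strands carry that doubt. The FPKM were used as deposited; their totals ran from 501418 to 564985. Groups were taken from the sample labels, whose treatment field gives RANKL for every sample while titles and stimulation field separate the unstimulated ones.

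Depth was estimated from the steps between FPKM below 0.15 and transcript length less 150 bp, and is approximate. Intervals from it would cover counting error only. limma 3.58.1 in R 4.3.3 was run on log2(FPKM + 0.1), so that fold changes of low genes are understated, over 15894 genes averaging 0.1 FPKM or more, with a trend of variance on mean and adjustment by Benjamini-Hochberg. RANKL was tested with genotype as a term, and genotype and the difference in response with a mean for each of the 4 groups. The code was tested on simulated data. An exact permutation test of 2 against 2 libraries could not go below 0.333, and none was run. pandas 2.3.3 and numpy 2.4.6 were used for counts and motif searches.

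Members, lists and tests were chosen with earlier results of these data known. Members with values in every library were Mki67, Top2a, Cdk1, Ccnb1, Mcm2, Pcna, Rrm2 and E2f1, the most abundant member of each role, the 5 called members with the largest log2 change with RANKL, the 3 highest and 3 lowest genotype differences under RANKL and the 3 largest unstimulated differences; genes outside the list were named if called, up to 3 per list and direction, and Cenpa, Cenpf, Ccne2 and the remaining members named were added after their values were seen. Marker lists of mast cells, neutrophils and erythroid cells summed to at most 19.9 FPKM, and 4 markers of all thymic epithelium to 4500 to 6580 FPKM, in the 6 libraries; Knl1, Ly6g, Hbb-bs and Hbb-bt were not matched. Other settings tried were constants of 1 and 0.01, filters at 0 and 1 FPKM, no trend, 2 scalings, leaving out each RANKL library, the replicate number as a block, other models and, chosen after seeing the data, removal of trends in GC content and length.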

Additional observations from a re-analysis of the deposited data

How the results depend on the processing

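For the rise with RANKL, 30 of the 45 genes passed in the fit reported, 9 without the filter on low values, 19 after scaling to equal FPKM totals, 19 with one mean per condition, and 17 to 42 when 1 RANKL library was left out. In the remaining alternatives the count lay between 20 and 35, and all 45 changes were above 0 in each. For the genotypes under RANKL, 0 genes were called lower in the fit reported and 2 with the replicate number as a block (Tk1 and Birc5). It was 3 with genotype over all 6 libraries (Tk1, Ube2c and Birc5) and 1 with the trends in GC content and length removed. Over all 15894 genes these fits, in the same order, called 290, 1081, 538 and 583 lower. When 1 RANKL library was left out, the median difference lay between -0.58 and -0.04, and that of Mki67 between -0.73 and 0.28. Counts of genes called between the genotypes are not given for these fits, which leave a single RANKL library in 1 genotype. The difference in response gave 0 calls among the 45 genes in every alternative. Over all genes, calls with RANKL were 1675 higher and 654 lower, and with the trends in GC content and length removed 1826 and 2759. The cause of these shifts was not tested, except that without the filter more genes share the adjustment. Same-numbered libraries did not deviate together (r = -0.08 over 12590 genes), but 1 pair for each genotype cannot show whether they were prepared together. The block gave 32 calls with RANKL, with 42 of the 45 genes at an unadjusted p under 0.05 by limma (43 without it). For the genotypes under RANKL it gave 9 at that level (8 without it). The unstimulated difference kept a median of -0.26 to -0.35 over the constants and scalings. The replication of 2 libraries, and of 1 without RANKL, limits every test here, and the lowest values of Ccne2, Cdc6 and Cdc45 rest on the fewest fragments.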
